A study of Mus musculus with 20 samples.

Results

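In mouse left ventricle after myocardial infarction (MI), 10 genes of the intercalated disc, the end-to-end contact between heart muscle cells, and of the connexin family were examined. They were Gja1, Gja5, Gja4, Dsp, Dsg2, Dsc2, Pkp2, Jup, Cdh2 and Tjp1. Every array probe named with one of these symbols was considered, and a probe was kept when its detection p-value, which sets its brightness against negative control beads, was below 0.01 on at least 5 of 20 arrays. Of 19 such probes, 15 were kept, among 18683 kept probes of 45281 in the whole table. The 15 probes belong to 8 of the 10 genes. Dsc2, a desmosomal cadherin, had 1 probe (ILMN_2731310), which was detected on 0 arrays. Dsp, the desmosomal linker to the intermediate filaments, had no probe paired with its symbol in the annotation used and was not analysed here.

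The left ventricle, with the infarct left out, was taken from C57BL/6J mice aged 12 to 15 weeks at 3 days after surgery. There were 4 groups of 5 mice with 1 array each: female MI (ligation of a coronary artery), female sham, male MI and male sham. The labels name no transgene or drug in any group. The series title relates gene expression to the better survival of female mice after infarction. The p-values measure the spread between mice within the groups. The tissue is a mixture of cell types, so fewer cells of a type and less RNA per cell cannot be told apart in any result below.

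Several kinds of junction meet in the intercalated disc. Gap junctions are channels built of connexins and carry the electrical impulse from cell to cell. Desmosomes join the intermediate filaments of neighbouring cells through the desmosomal cadherins (Dsg2, Dsc2), plakophilin 2 (Pkp2), plakoglobin (Jup) and desmoplakin (Dsp). Adherens junctions join the actin filaments through N-cadherin (Cdh2), and zonula occludens 1 (Tjp1) is a scaffold that binds connexin 43 at the edge of gap junctions. In people, inherited defects of the desmosomal genes cause arrhythmogenic cardiomyopathy, and a redistribution of connexin 43 is a known feature of injured ventricle.

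Levels are normalised log2 intensities, and the level of a probe also depends on how well it hybridises, so levels are not compared between probes. A difference is a log2 difference between group means, given with its standard error (SE) and 95% interval. Differences were tested with limma over all kept probes, and a probe was called at a Benjamini-Hochberg adjusted p below 0.05. Raw intensity had an array median of 31.4 to 39.2, and 34.6% to 40.6% of probes were detected per array. Of the 4 chips, chip 1 held 3 male MI and 3 male sham arrays, chip 2 held 2 arrays each of male MI, male sham and female sham, chip 3 held 4 female MI and 2 female sham arrays, and chip 4 held 1 array of each female group. Among the arrays, 3 lay in the last position of their chip (female MI 4, female sham 2 and male sham 3), and in them 577 kept probes were more than 1 log2 unit lower than in the rest after group means were removed. The shift of the 15 junction probes in those 3 arrays lay between -0.76 and 0.37, and calls that change without those arrays are stated as such.

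Desmoglein 2 (Dsg2), the desmosomal cadherin of heart muscle cells, was the only gene among the 8 with a probe that passed the test in either sex. It fell in female MI hearts at 2 of its 4 kept probes, by 0.79 and 0.70 on the log2 scale, and at none of them in male MI hearts. The brightest Dsg2 probe had a log2 difference of -0.41 in female mice and did not pass (adjusted p = 0.063). None of the connexins passed, nor did Pkp2, Jup, Cdh2 or Tjp1. The female difference was not shown to differ from the male one after adjustment (adjusted p = 0.54 for both probes).

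Across the 15 probes, 0 were called higher and 2 lower in female MI against female sham hearts, beside 30.5% of all kept probes called in either direction. At an unadjusted p below 0.05 there were 4 of the 15, against 40.9% of all kept probes. The 15 female differences lay between -0.79 and 0.23 with a median of -0.11, against a median of -0.06 over all kept probes, and 10 were below 0. In male MI against male sham hearts limma called 0 of the 15, beside 16.5% of all kept probes, and 2 of the 15 had an unadjusted p below 0.05, against 30.9% of all kept probes. The 15 male differences lay between -0.21 and 0.39 with a median of 0.13, against -0.04 over all kept probes, and 11 were above 0. The lowest and highest bounds of the 15 male intervals were -0.57 and 0.79. For 0 of the 15 probes were the MI and sham levels fully separated in either sex, beside 14.2% of kept probes in female mice and 16.7% in male mice. When each array was instead scaled to its 75th percentile, 5 of 15 female and 10 of 15 male differences were above 0, with medians of -0.22 and 0.07. Dsg2, Gja5 and Pkp2 each had several of the 15 probes, so these counts are not of separate genes. With 1 probe per symbol, 2 of 8 female and 4 of 8 male differences were above 0, with medians of -0.12 and 0.08. The male median over the 15 probes was 0.21 within chip 1 and 0.01 within chip 2.

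**Figure D1:**
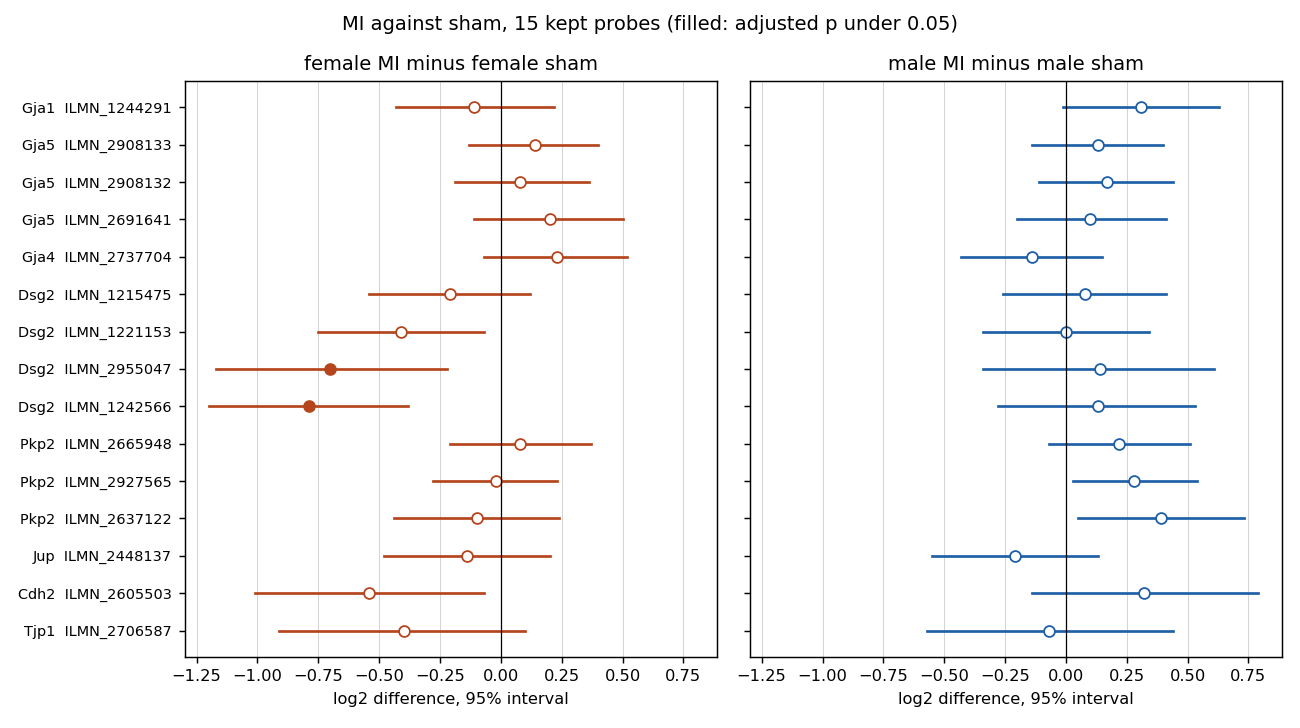
Log2 difference between MI and sham hearts (x axis) for each of the 15 kept probes (y axis, gene and probe), in female mice on the left and male mice on the right. Points are differences from the limma fit and lines their 95% intervals; filled points have an adjusted p below 0.05, and only Dsg2 probes ILMN_1242566 (-0.79) and ILMN_2955047 (-0.70) in female mice are filled.

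Dsg2 had 4 kept probes, all annotated to the same transcript, and they are given in order of their female difference. Probe ILMN_1242566 had levels of 5.84, 6.18, 6.74, 6.22 and 5.88 in the 5 female MI hearts and 6.75, 6.74, 7.57, 6.99 and 6.75 in the 5 female sham hearts. In male mice it had levels of 6.71, 6.87, 6.03, 6.56 and 6.75 in MI hearts and 6.03, 6.62, 6.31, 6.65 and 6.68 in sham hearts. In female mice 4 of the 5 MI hearts lay below every sham heart, and female MI 3 reached the lowest sham level, whereas the male groups covered much the same range. The log2 difference was -0.79 in female mice (SE 0.196, interval -1.20 to -0.38, adjusted p = 0.00445), a level 1.73-fold lower, and 0.13 in male mice (SE 0.196, interval -0.28 to 0.53, adjusted p = 0.713).

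Probe ILMN_2955047 of Dsg2 had levels of 5.38, 5.85, 6.37, 5.78 and 5.83 in female MI hearts, against 6.15, 6.41, 7.26, 6.57 and 6.30 in female sham hearts. Its levels in male mice were 6.64, 6.56, 5.58, 6.15 and 6.13 in MI hearts, against 5.45, 6.11, 6.11, 6.37 and 6.33 in sham hearts. Female MI 3 was again the highest of its group and female sham 3 the highest of all 20 hearts. The log2 difference was -0.70 in female mice (SE 0.228, interval -1.17 to -0.22, adjusted p = 0.0247), a level 1.62-fold lower, and 0.14 in male mice (SE 0.228, interval -0.34 to 0.61, adjusted p = 0.733). The female call rested on single hearts: it was lost without female MI 1 (difference -0.58, adjusted p = 0.0797) and without female sham 3 (-0.52, adjusted p = 0.0805). Probe ILMN_1242566 was called in each of 20 fits that left out 1 heart, with differences between -0.93 and -0.64.

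The brightest Dsg2 probe, ILMN_1221153, had levels of 9.11, 9.35, 9.90, 9.10 and 9.51 in female MI hearts and 9.90, 9.29, 10.08, 10.05 and 9.68 in female sham hearts. The groups overlapped through female MI 3, which lay at the level of female sham 1, and through female sham 2, the lowest of its group and an array in the last chip position. Female MI 4, the lowest female MI heart at 9.10, was also a last-position array. The probe had a mean level of 9.66 ± 0.14 in male MI hearts and 9.66 ± 0.24 in male sham hearts (SD, n = 5 each). Its female difference of -0.41 (SE 0.164, interval -0.75 to -0.07) was called without the 3 last-position arrays (-0.46, adjusted p = 0.0219). It was called in 2 of 20 fits that left out 1 heart: without female sham 2 (-0.54, adjusted p = 0.0113) and without female MI 3 (-0.54, adjusted p = 0.0115). This probe lay 0.45 lower in the last-position arrays (a shift of -0.45), against shifts of -0.13 and -0.06 for the probes called. The dimmest probe, ILMN_1215475, was detected on 12 arrays (2 female MI, 3 female sham, 4 male MI and 3 male sham) and had female and male differences of -0.21 and 0.08 (adjusted p = 0.349 and 0.794).

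Over the 20 arrays the 4 Dsg2 probes correlated with each other at r between 0.63 and 0.94, and the pair that was called had the highest r. These correlations describe the same RNA read by several probes, not separate evidence. Within chip 3, the 1 chip with several arrays of both female groups, the 4 Dsg2 differences were -1.04 for ILMN_1242566 (adjusted p = 0.0461), -1.07 for ILMN_2955047 (0.0522), -0.70 for ILMN_1221153 (0.0902) and -0.61 for ILMN_1215475 (0.0847). With chip as a fixed factor all 4 Dsg2 probes were called, with differences between -0.99 and -0.49. The chip 3 arrays are part of the full female comparison, so the same direction there is not separate evidence. The sham hearts on that chip, female sham 3 and 4, were the highest female sham hearts at all 4 Dsg2 probes.

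**Figure D2:**
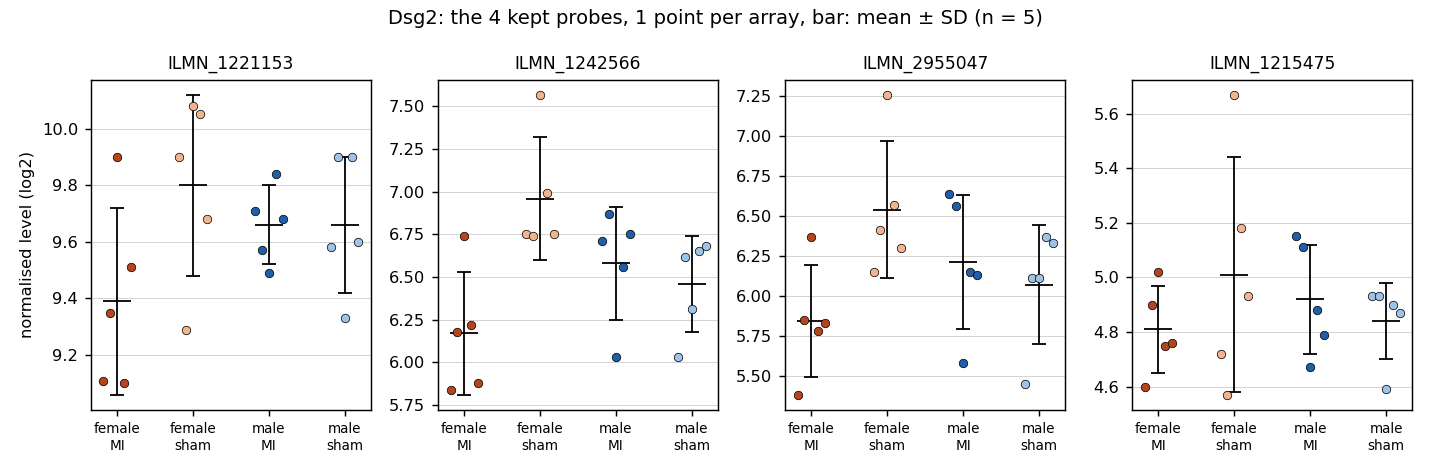
Normalised log2 level (y axis) of the 4 kept Dsg2 probes, 1 panel each, in female MI, female sham, male MI and male sham hearts (x axis). Points are arrays and bars are mean ± SD (n = 5); at ILMN_1242566 the female MI mean of 6.17 lies below the female sham mean of 6.96, while the male means are 6.58 and 6.46.

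Between the sexes, no Dsg2 probe passed the test. At ILMN_1242566 the 5 female sham hearts (6.74 to 7.57) all lay above the 5 male sham hearts (6.03 to 6.68), with a log2 difference of 0.50 (SE 0.196, adjusted p = 0.277). This was the 1 of 15 probes whose groups did not overlap, beside 1.73% of all kept probes. The difference was 0.08 within chip 2, the 1 chip that held sham hearts of both sexes, and 0.15 with chip as a fixed factor. Female MI against male MI hearts gave -0.41 for the same probe (SE 0.196, adjusted p = 0.352), and -0.97 with chip as a fixed factor (adjusted p = 0.325). No chip held MI hearts of both sexes, so there is no within-chip value. The female response minus the male response was -0.91 (SE 0.278, interval -1.49 to -0.34, unadjusted p = 0.00349, adjusted p = 0.54), and -0.83 for ILMN_2955047 (SE 0.323, unadjusted p = 0.0175). The sham comparison shares its sham hearts, and the MI comparison its MI hearts, with the female and male differences given above. The response differences are the female difference minus the male difference, so they are not separate evidence.

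Connexin 43 (Gja1), the main gap junction protein of working ventricular muscle, was among the brightest probes on the array. Its probe ILMN_1244291 outshone 99.2% of kept probes with a mean level of 12.93, where the highest normalised level on any array was 13.99. It had levels of 12.56, 13.04, 13.05, 12.82 and 12.94 in female MI hearts and 13.19, 12.67, 12.91, 13.21 and 12.96 in female sham hearts. In male mice the levels were 13.27, 13.21, 13.11, 13.26 and 12.55 in MI hearts and 12.78, 12.70, 12.36, 13.08 and 12.93 in sham hearts. The female groups covered much the same range, and 4 of 5 male MI hearts lay above every male sham heart while male MI 5 lay below 4 of them.

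The Gja1 difference was -0.11 in female mice (SE 0.155, interval -0.43 to 0.22, adjusted p = 0.648) and 0.31 in male mice (SE 0.155, interval -0.01 to 0.63, adjusted p = 0.177). As ratios of MI to sham level, the intervals ran from 0.744 to 1.16 in female mice and from 0.992 to 1.55 in male mice. The male difference was called within chip 1 (0.59, adjusted p = 0.0372). It was also called in 1 of 20 fits that left out 1 heart, without male MI 5 (0.44, adjusted p = 0.0471). Within chip 2 it was -0.10, and after scaling to the 75th percentile it was 0.03. Chip 2 held male MI 5. The difference between the sexes in the response to MI was -0.42 (SE 0.219, unadjusted p = 0.0712, adjusted p = 0.596).

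Connexin 40 (Gja5), which in the heart marks atrial muscle, the ventricular conduction system and arterial endothelium, had 3 kept probes and 2 that were detected on 0 arrays. Its brightest probe, ILMN_2908132, had levels of 6.80, 6.77, 6.73, 6.52 and 7.07 in female MI hearts, against 6.55, 7.09, 6.66, 6.47 and 6.70 in female sham hearts. Levels in male mice were 6.81, 6.78, 7.07, 6.62 and 6.57 in MI hearts, against 6.54, 6.58, 6.89, 6.43 and 6.58 in sham hearts. All 4 groups overlapped. The 3 probes had female differences of 0.08, 0.14 and 0.20 and male differences of 0.17, 0.13 and 0.10, all 6 above 0 and none called (lowest adjusted p = 0.336).

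The Gja5 probes differed in how well they tracked each other: ILMN_2908132 and ILMN_2691641 correlated at r = 0.79 over the 20 arrays, and ILMN_2908133 correlated at 0.23 and 0.14 with them. Markers of the cells that carry connexin 40 were examined beside it. Of 5 measured conduction system markers 2 fell in female MI hearts (Tbx3 and Cacna1g) and 2 in male MI hearts (Tbx3 and Cntn2), while Hcn4, a defining pacemaker channel gene, had no kept probe. Of 5 measured atrial markers Nppa, a natriuretic peptide gene that stressed ventricle also expresses, rose in both sexes. The other 4 (Myl7, Myl4, Sln and Stard10) had differences below 0 in both sexes and were not called, and the median of the 5 was -0.63 in female and -0.27 in male mice, against -0.04 over all symbols. Of 9 measured arterial endothelial markers Unc5b rose and Hey2 fell in female MI hearts, and limma called 0 in male MI hearts (0 at an unadjusted p below 0.05), where the median difference was -0.06. The part of these cells in the Gja5 level was not tested.

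Connexin 37 (Gja4), a connexin of arterial endothelium, had 1 kept probe (ILMN_2737704). It had levels of 8.18, 7.83, 7.89, 7.97 and 7.97 in female MI hearts, against 7.70, 8.15, 7.31, 7.77 and 7.77 in female sham hearts. In male mice it had levels of 7.59, 7.60, 8.08, 7.90 and 7.94 in MI hearts, against 8.22, 7.89, 8.13, 7.76 and 7.79 in sham hearts. All 5 female MI hearts lay above 4 of the 5 female sham hearts, and the exception, female sham 2, is a last-position array. The difference was 0.23 in female mice (SE 0.14, interval -0.07 to 0.52, adjusted p = 0.237) and -0.14 in male mice (SE 0.14, interval -0.43 to 0.15, adjusted p = 0.55). The summed linear level of the 9 measured arterial endothelial markers lay between 805 and 1011 in female MI hearts, against 836 to 1046 in female sham hearts, and between 759 and 902 in male MI hearts, against 883 to 1069 in male sham hearts.

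Plakophilin 2 (Pkp2), the armadillo protein of the cardiac desmosome, had 3 bright probes. The brightest, ILMN_2927565, had levels of 10.70, 10.80, 10.91, 10.46 and 10.87 in female MI hearts and 10.76, 10.59, 10.71, 11.05 and 10.74 in female sham hearts. In male mice it had levels of 10.87, 11.08, 11.04, 10.94 and 10.92 in MI hearts and 10.61, 10.70, 10.31, 11.02 and 10.79 in sham hearts. All 5 male MI hearts lay above 4 of the 5 male sham hearts, and the exception was male sham 4. The 3 Pkp2 probes had male differences of 0.28, 0.22 and 0.39, of which 2 had an unadjusted p below 0.05 and none an adjusted one. After scaling to the 75th percentile the same 3 probes had male differences of 0.07, 0.04 and 0.28, and 0 of the 15 junction probes had an unadjusted p below 0.05 in male mice.

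For ILMN_2637122 the male Pkp2 difference was 0.39 (SE 0.165, interval 0.05 to 0.73, adjusted p = 0.111) and for ILMN_2927565 it was 0.28 (SE 0.122, interval 0.03 to 0.54, adjusted p = 0.118). The ILMN_2927565 difference was called in 1 of 20 fits that left out 1 heart, without male sham 4 (0.37, adjusted p = 0.0408). The male differences were larger within chip 1 (0.57, 0.33 and 0.46 for ILMN_2637122, ILMN_2665948 and ILMN_2927565) than within chip 2 (0.12, 0.06 and 0.02). In female mice the 3 probes had differences of -0.10, 0.08 and -0.02 (lowest adjusted p = 0.688). Across the 20 arrays ILMN_2665948 and ILMN_2637122 correlated at r = 0.84, and ILMN_2927565 at 0.19 and 0.46 with them.

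Plakoglobin (Jup), which serves both desmosomes and adherens junctions, had 1 dim probe (ILMN_2448137) that outshone 18.9% of kept probes and was detected on 19 arrays. Its levels were 4.80, 5.12, 5.27, 4.89 and 5.09 in female MI hearts and 5.39, 4.97, 5.51, 5.05 and 4.95 in female sham hearts. They were 4.93, 4.97, 5.44, 5.03 and 5.30 in male MI hearts and 5.16, 5.45, 5.94, 5.12 and 5.06 in male sham hearts. The groups overlapped in both sexes. The differences were -0.14 in female mice (SE 0.162, interval -0.48 to 0.20, adjusted p = 0.554) and -0.21 in male mice (SE 0.162, interval -0.55 to 0.13, adjusted p = 0.401).

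N-cadherin (Cdh2), the adherens junction cadherin of heart muscle, had 1 kept probe, ILMN_2605503. It had levels of 5.81, 6.02, 6.05, 5.57 and 5.70 in female MI hearts and 6.38, 6.01, 6.87, 6.22 and 6.38 in female sham hearts. Levels were 6.82, 6.97, 5.90, 6.15 and 5.88 in male MI hearts and 5.88, 5.90, 5.43, 6.56 and 6.34 in male sham hearts. In female mice the groups overlapped only through female sham 2, and in male mice they overlapped widely, with male MI 1 and 2 above every other male heart.

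The Cdh2 difference in female mice was -0.54 (SE 0.224, interval -1.01 to -0.07), 1.45-fold lower, with an unadjusted p of 0.0252 and an adjusted p of 0.0729. It was called in 1 of 20 fits that left out 1 heart, without female sham 2 (-0.63, adjusted p = 0.0421). Under 14 other settings it was called in 1, with only the female groups fitted (-0.54, SE 0.162, adjusted p = 0.03). In male mice the difference was 0.32 (SE 0.224, interval -0.14 to 0.79, adjusted p = 0.344), and it was 0.83 within chip 1 and -0.43 within chip 2. Female MI against male MI hearts gave -0.51 (SE 0.224, adjusted p = 0.306). The female response minus the male response was -0.86 (SE 0.317, interval -1.52 to -0.21, unadjusted p = 0.0126, adjusted p = 0.54). The other Cdh2 probe, ILMN_1216390, was detected on 1 array.

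The scaffold Tjp1 had 1 kept probe (ILMN_2706587), with levels of 6.37, 6.06, 6.49, 5.12 and 6.95 in female MI hearts, against 6.63, 6.15, 6.52, 6.77 and 6.93 in female sham hearts. The levels were 6.46, 6.17, 6.57, 6.44 and 6.24 in male MI hearts, against 6.58, 6.33, 6.04, 6.99 and 6.28 in male sham hearts. The lowest array in each of female MI, female sham and male sham hearts was the one in the last chip position, and the probe's shift there was -0.76. The differences were -0.40 in female mice (SE 0.242, interval -0.91 to 0.10, adjusted p = 0.222) and -0.07 in male mice (SE 0.242, interval -0.57 to 0.44, adjusted p = 0.881). Without the last-position arrays the female Tjp1 difference was -0.25, and with arrays weighted by their quality it was called (-0.47, adjusted p = 0.0422).

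**Figure D3:**
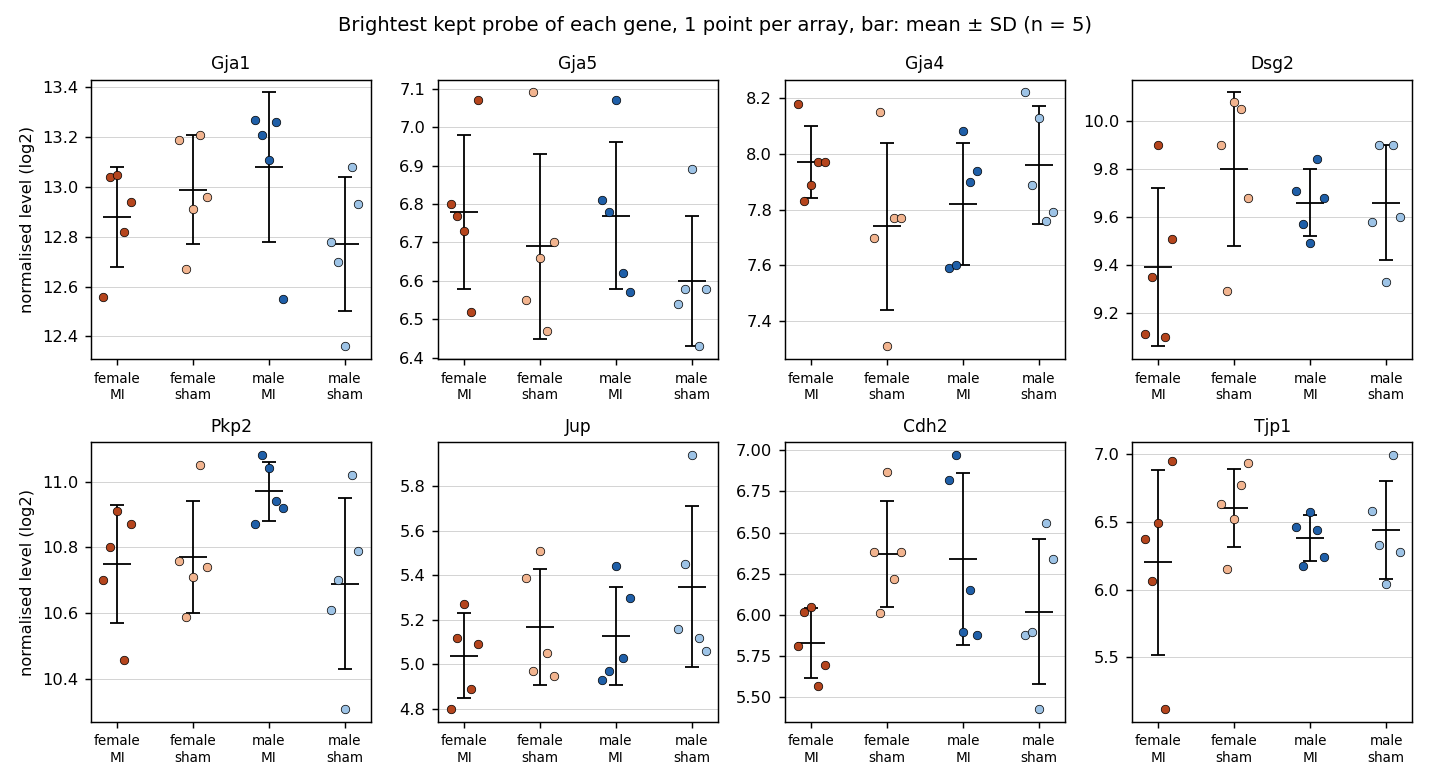
Normalised log2 level (y axis) of the brightest kept probe of each of the 8 measured genes in female MI, female sham, male MI and male sham hearts (x axis). Points are arrays and bars are mean ± SD (n = 5); the groups overlap for every gene shown, and the y axes differ between panels.

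Compared between the sexes, the 15 probes gave 0 calls in female sham against male sham hearts (1 at an unadjusted p below 0.05 in limma), beside 0.107% of all kept probes. They gave 0 calls in female MI against male MI hearts (2 at an unadjusted p below 0.05), beside 0.145% of all kept probes, and 0 of the 15 had groups that did not overlap, beside 2.98%. The test of the female response minus the male response gave 0 calls among the 15 (4 at an unadjusted p below 0.05) and 0% of all kept probes (8.72% at an unadjusted p below 0.05). Of the 15 response differences 11 were below 0, with a median of -0.30, against 0.01 over all kept probes. With 1 probe per symbol, 6 of 8 were below 0, with a median of -0.32. Female sham minus male sham was above 0 for 12 of 15 probes, but for 8 of 15 after scaling to the 75th percentile, for 9 of 15 with chip as a fixed factor (median 0.03) and for 6 of 15 within chip 2 (median -0.08).

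The genes that varied most like each member over the 20 arrays were found from the brightest kept probe of each symbol, and are given as a description with the arrays' positions in common. Dsg2 was followed most closely by Kcnd2 (r = 0.91), a potassium channel gene, then by Acss1 and Reep1 (both 0.88). Cdh2 was followed by Dlc1 and Umad1 (both 0.89), and Tjp1 by Sem1 (0.94), Prpsap2 and Spats2l (both 0.93). Pkp2 was followed by Igfbp5 (0.86), Gja4 by 6030458C11Rik, Supt6 and Atf6b (all 0.84), and Jup by Zfp385a and Aldoa (both 0.78). Gja5 was followed by Larp7 (0.76) and Gja1 by Add3 (0.75). The shift in the last-position arrays was -1.09 for Kcnd2, -0.82 for Add3, -0.73 for Spats2l, -0.62 for Igfbp5, -0.57 for Sem1 and -0.46 for Dlc1. It was above 0 for the named followers of Gja5, Gja4 and Jup, with 0.54 for Atf6b and 0.30 for Larp7. Among the 28 pairs of members, the highest r was that of Gja1 and Pkp2 (0.72) and the lowest that of Gja4 and Cdh2 (-0.85).

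The other genes of the same junctions were each read by their brightest kept probe. Symbols called higher made up 17% of 10278 symbols in female mice and 10.1% in male mice, and those called lower 15.5% and 8.36%. Of 20 further connexin and pannexin genes, 2 were measured, Gjc1 and Panx1. Panx1, which forms a membrane channel that releases ATP, rose in both sexes. Its level lay between 6.66 and 7.70 in female MI hearts, against 5.30 to 6.13 in female sham hearts, and between 6.45 and 7.13 in male MI hearts, against 5.78 to 6.03 in male sham hearts. The groups did not overlap in either sex. The Panx1 difference was 1.46 in female mice (SE 0.176, adjusted p = 5.24e-06) and 0.86 in male mice (SE 0.176, adjusted p = 0.00219). Gjc1, which encodes connexin 45, had differences of 0.00 and 0.29 (adjusted p = 0.996 and 0.458).

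Of 14 further desmosome genes, 3 were measured (Ppl, Pkp4 and Des), and 1 fell in each sex. Ppl, the plakin periplakin, had levels between 4.50 and 6.17 in female MI hearts, against 6.06 to 6.81 in female sham hearts, and between 5.79 and 6.03 in male MI hearts, against 6.09 to 6.95 in male sham hearts. Its difference was -1.01 in female mice (SE 0.216, adjusted p = 0.00136) and -0.64 in male mice (SE 0.216, adjusted p = 0.0456). The male call was lost in 14 of 20 fits that left out 1 array, with an adjusted p up to 0.121. The female call was lost within chip 3 (adjusted p = 0.0563). The shift of this Ppl probe in the last-position arrays was -0.69. Desmin (Des), the muscle intermediate filament that desmosomes hold, had differences of 0.23 and 0.00 (adjusted p = 0.289 and 0.994).

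Of 31 further adherens junction symbols, 4 of them older names of genes listed under both names, 20 were measured. In female MI hearts 5 rose (Zyx, Cdh3, Nectin2, Nectin3 and Afdn) and 3 fell (Ctnnal1, Cdh4 and Ctnna3), and in male MI hearts 2 rose (Zyx and Nectin3) and 2 fell (Cdh4 and Ctnnal1). The median of the 20 was 0.09 in female and 0.14 in male mice, against -0.04 over all symbols in each. The female calls of Afdn and Ctnna3 were lost without the last-position arrays. Within chip 3 the female calls of Cdh4 (adjusted p = 0.149), Nectin2 (0.0851), Afdn and Ctnna3 were lost. Those of Zyx, Nectin3 and Ctnnal1 were kept there. Cdh3 passed the detection filter through MI hearts alone, so its place in the count is no support for a rise. Nectin2, Afdn and Ctnna3 were named after their values were seen, to complete these counts. Beta-catenin (Ctnnb1) and alpha-catenin (Ctnna1), the classical partners of N-cadherin, had female differences of 0.09 and -0.11 and male differences of 0.31 and 0.15, none of them called.

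Nectin3, a cell adhesion molecule of adherens junctions, had levels between 7.65 and 8.12 in female MI hearts, against 7.20 to 7.42 in female sham hearts, and between 7.46 and 7.75 in male MI hearts, against 6.94 to 7.31 in male sham hearts. Its difference was 0.67 in female mice (adjusted p = 6.63e-05) and 0.58 in male mice (adjusted p = 0.000726; SE 0.103 in each). Zyxin (Zyx), a protein of actin anchoring sites, had differences of 0.98 (SE 0.165, adjusted p = 0.000149) and 0.65 (SE 0.165, adjusted p = 0.0101). The Zyx call in male mice was lost under scaling to the 75th percentile.

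R-cadherin (Cdh4) had differences of -0.96 in female mice (SE 0.163, adjusted p = 0.000175) and -0.90 in male mice (SE 0.163, adjusted p = 0.000892). Its level lay between 5.62 and 6.33 in female MI hearts, against 6.16 to 7.14 in female sham hearts, and between 6.19 and 6.59 in male MI hearts, against 7.17 to 7.43 in male sham hearts. Ctnnal1, a protein related to alpha-catenin, had differences of -0.99 (SE 0.147, adjusted p = 4.3e-05) and -0.65 (SE 0.147, adjusted p = 0.00478). P-cadherin (Cdh3) was detected in 5 of 5 female MI hearts and 0 of 5 female sham hearts, where its level is only a bound, and was at least 1.46-fold higher. It was detected in 2 of 5 male MI hearts and 0 of 5 male sham hearts. Since those 7 detections alone kept the Cdh3 probe, its difference is given as a description without a p-value. Nectin2 had a difference of 0.93 in female mice (SE 0.213, adjusted p = 0.00247), against 0.44 in male mice (adjusted p = 0.161).

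Of 26 scaffolds and partners of the disc, 20 were measured. In female MI hearts 3 rose (Ilk, Mapre1 and Flnc) and 4 fell (Tmem65, Lmo7, Cxadr and Ank2), and in male MI hearts 1 fell (Tmem65). Flnc, Cxadr and Ank2 were named after their values were seen. Within chip 3, where 1304 kept probes were called against 5689 over all female arrays, each of these female calls but that of Flnc was lost. The adjusted p there lay between 0.058 (Ilk and Mapre1) and 0.149 (Tmem65). Flnc was called in 13 of 20 fits that left out 1 array. Lmo7 had levels between 8.02 and 8.26 in female MI hearts, against 8.41 to 9.23 in female sham hearts, with a difference of -0.63 (SE 0.175, adjusted p = 0.00921), and a male difference of 0.06 (adjusted p = 0.844). Ankyrin B (Ank2), a membrane anchor of ion transporters, and Cxadr, the coxsackievirus and adenovirus receptor that lies at the disc, had female differences of -0.64 (adjusted p = 0.00958) and -0.47 (adjusted p = 0.0102) and male differences of -0.09 and -0.20 (adjusted p = 0.765 and 0.318).

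Tmem65, a mitochondrial inner membrane protein also described at the disc in mouse heart, had differences of -0.47 in female mice (SE 0.109, adjusted p = 0.00252) and -0.33 in male mice (SE 0.109, adjusted p = 0.0444). The male call was lost in 10 of 20 fits that left out 1 array, and without the last-position arrays. Ilk, an integrin-linked kinase, had a female difference of 0.61 (SE 0.146, adjusted p = 0.00319), and Mapre1, which binds growing microtubule ends and takes part in connexin 43 delivery, one of 0.51 (SE 0.132, adjusted p = 0.00582). In male mice Ilk and Mapre1 had differences of 0.28 and 0.18 (adjusted p = 0.19 and 0.37). For none of these genes was the response shown to differ between the sexes, since 0 of all kept probes passed that test. Without the last-position arrays the scaffold list had 4 calls higher and 4 lower in female mice and 2 higher and 0 lower in male mice.

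**Figure D4:**
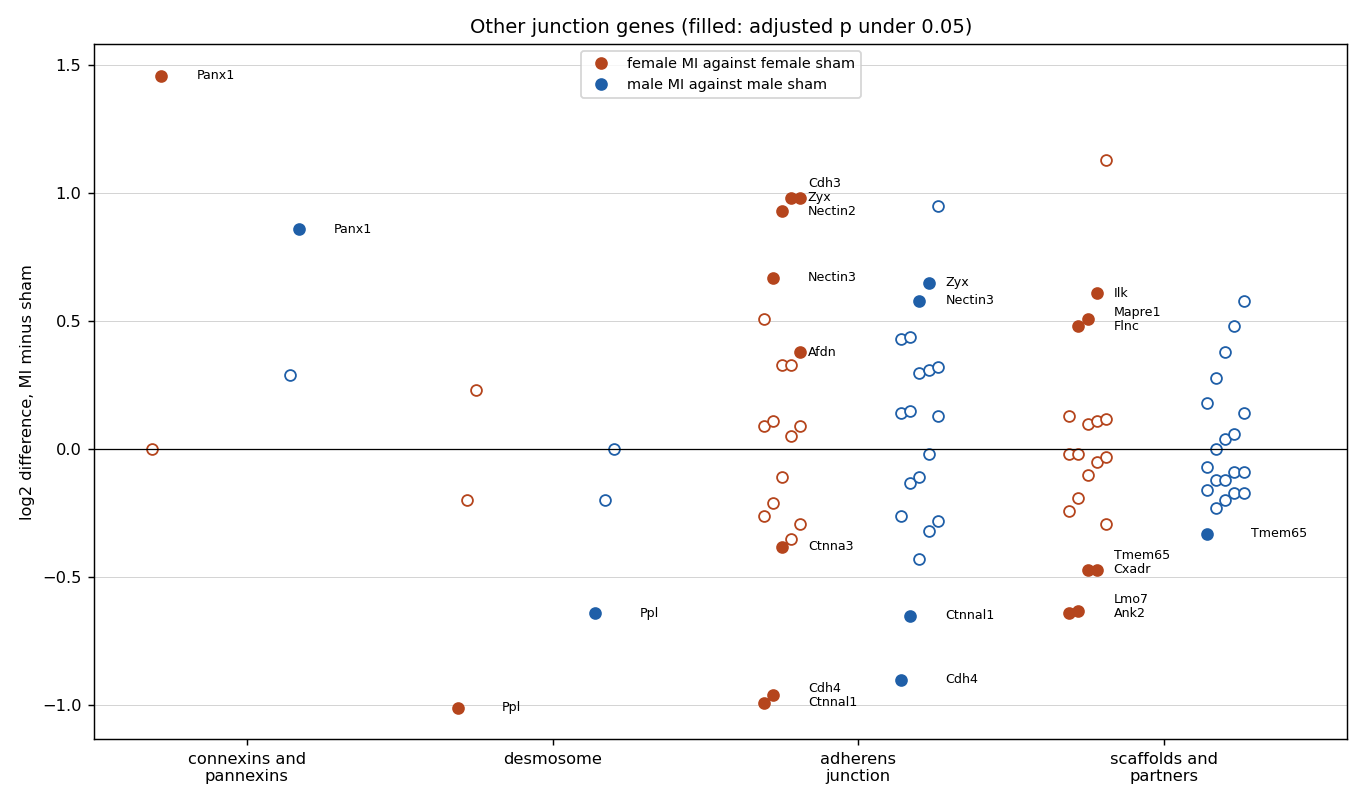
Log2 difference between MI and sham hearts (y axis) of the other genes of each junction list (x axis), by the brightest kept probe of each gene, in female mice (left column of each list) and male mice (right column). Filled points have an adjusted p below 0.05 and are named; Panx1 is the highest at 1.46 in female mice and Ppl the lowest at -1.01.

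Markers of the cell types in the tissue were read beside these results. Of 9 measured cardiomyocyte markers 0 rose and 2 fell in female MI hearts (Tnni3 and Ttn), and limma called 0 in male MI hearts (1 at an unadjusted p below 0.05). Troponin I (Tnni3) had a difference of -0.40 in female mice (adjusted p = 0.00712) and -0.24 in male mice (adjusted p = 0.138), and the call of Ttn was lost without the last-position arrays. Within chip 3 the female calls of Tnni3 (adjusted p = 0.229) and Ttn were lost. The summed linear level of the 9 cardiomyocyte markers lay between 78917 and 87592 in female MI hearts, against 82804 to 85698 in female sham hearts, and between 79802 and 82285 in male MI hearts, against 75616 to 87426 in male sham hearts. The sums overlapped in both sexes, and no array lacked this muscle signal of the labelled tissue.

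The macrophage markers moved with MI: 8 of 8 measured rose in female MI hearts and 6 of 8 in male MI hearts. Their summed level lay between 5762 and 12439 in female MI hearts, against 3045 to 4860 in female sham hearts, and between 6291 and 8168 in male MI hearts, against 3340 to 4451 in male sham hearts. Of 9 fibroblast markers 3 rose (Col1a1, Col1a2 and Col3a1) and 1 fell in female MI hearts, and 5 were not called. Gsn was the marker that fell (log2 difference -1.34, adjusted p = 0.00124 in limma). In male MI hearts 4 rose (the same collagens and Lum) and 5 were not called. Col1a1 had a log2 difference of 2.03 in each sex. Summed fibroblast levels lay between 10914 and 16524 in female MI hearts, against 5272 to 16096 in female sham hearts. In male mice they lay between 14270 and 15552 in MI hearts, against 7027 to 13609 in sham hearts. Among 9 smooth muscle and pericyte markers 2 rose and 4 fell in female MI hearts, and 1 rose and 1 fell in male MI hearts. Of 9 endothelial markers Esam rose and Vwf fell in female MI hearts, and of 4 measured mesothelial and epithelial markers Krt18 rose in female MI hearts. In male MI hearts limma called 0 endothelial markers (2 at an unadjusted p below 0.05) and 0 mesothelial and epithelial ones (2 at an unadjusted p below 0.05). The part of a changed mix of cells in the Dsg2, Panx1, Cdh3 and Nectin2 differences was not tested.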

How the data were processed

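The authors deposited the linear bead intensity of each probe on each array, without normalisation or background subtraction as the values show, and a detection p-value beside each, per the file headers. They also deposited a matrix of log2 values, quantile-normalised and not centred as its columns show, with column medians of 5.14 to 5.15. Each of its 20 columns matched its own array best (r between 0.997 and 1), and it served as an alternative. RNA was amplified to biotin-labelled cRNA, per the labels' protocols. Sources used here do not give the scanner software or the array version.

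Intensities were background-corrected with normexp, with the negative controls' distribution estimated from detection p-values, offset by 16, quantile-normalised and log2-transformed (neqc, limma 3.58.1, R 4.3.3). The 18683 probes with detection p below 0.01 on at least 5 arrays entered 1 limma fit of 20 arrays with a mean per group (16 residual degrees of freedom), Benjamini-Hochberg adjusted over all of them. The precision is limited by the 5 arrays per group. Gene names come from the platform annotation: 34885 probes had 1 symbol, 18 several and 10378 were not listed. Lists used each gene's brightest kept probe. A probe undetected in a whole group was given a bound from the lowest detected signal per array. All kept probes of the members were named, and from each list the called genes with the lowest p, up to 2 per direction. The members and lists were chosen with earlier results of these data known. The fit was run on simulated data with independent noise and no chip or position effect, so that run cannot show how the fit handles such effects. Alternatives changed background, scaling, filter, probe choice, chip, array position, array weights, the groups fitted and single arrays.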

Additional observations from a re-analysis of the deposited data

Results flagged for a closer look

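In 4 of 60 groups of 5 arrays, 1 array stood apart from its group by Dixon's criterion, which chance alone meets in about 1 group in 20. For Gja1 (ILMN_1244291), male MI 5 was the lowest of its group at 12.55, with the others between 13.11 and 13.27. For Gja5 (ILMN_2691641), female sham 2 was the highest at 6.83, with the others between 6.28 and 6.38, and this array lay in the last position of its chip. For Dsg2, male sham 3, another last-position array, was the lowest at ILMN_1215475 with 4.59 against 4.87 to 4.93, and male sham 1 was the lowest at ILMN_2955047 with 5.45 against 6.11 to 6.37. The causes were not tested.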

How the results depend on the processing

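The 2 calls among the 15 probes in female mice, both Dsg2, became 1 with no filter on dim probes and 1 within chip 3, 4 with chip as a fixed factor (all Dsg2), 4 with array weights (3 of Dsg2 and Tjp1), and 0 of 8 genes with a single probe per symbol, where Dsg2 is read by its brightest probe. The count was 3 under scaling to the 75th percentile, where Dsg2 ILMN_1221153 was added (-0.44, adjusted p = 0.0372). It was also 3 without the last-position arrays (the same probe added) and with only the female groups fitted (Cdh2 added). Leaving out 1 array at a time gave between 1 and 4 calls. The fewest came without female MI 1 or female sham 3 and the most without female sham 2 (3 Dsg2 probes and Cdh2). In male mice the count of 0 became 1 within chip 1 (Gja1) and 1 with array weights (Pkp2), and lay between 0 and 1 when 1 array was left out (male MI 5 or male sham 4). Female MI against male MI had 2 calls with array weights, Dsg2 probes ILMN_1242566 (-0.53, adjusted p = 0.0281) and ILMN_1221153 (-0.38, adjusted p = 0.0416). ILMN_1242566 was called in female mice under 13 of 13 other settings and ILMN_2955047 under 11 of 13. Female sham against male sham and the response difference had 0 calls among the members under every setting run.

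The replicate numbers were tried as a block. Same-numbered arrays correlated at r between -0.399 and 0.461 after group means were removed. Nothing in the labels says that equal numbers mark paired mice, and these correlations cannot settle it. With this replicate block the member counts were 2 in female mice and 0 in the other 4 comparisons. Over all kept probes, 5465 were called in female mice (5689 without the block) and 2805 in male mice (3087 without it).

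Over all kept probes, scaling to the 75th percentile gave 32.8% of male calls higher, against 53.2% as reported, and moved the male median to -0.12. Array weights gave 7892 calls in female mice, 5307 in male mice and 2271 in female MI against male MI hearts (27 without weights), and within chip 2 there was 1 male call. The junction lists, examined under the same settings after their values were seen, kept 1 connexin or pannexin call (Panx1) in each sex, except within chip 2, which had 0. The male calls of Ppl and Tmem65 were each lost in 5 of 15 other settings, the female calls of Afdn in 8 of 14, Ctnna3 in 5 of 14 and Flnc in 3 of 14. Dim probes (Jup, the dimmest Dsg2 probe) limit what could be seen for those genes.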
